A study of Caenorhabditis elegans with 4 samples.

Results

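Major sperm proteins are small proteins encoded in Caenorhabditis elegans by a family of near-identical msp genes. The family was defined as every row of the count table whose gene ID has a symbol of the form msp- followed by a number, which gave 30 genes of 20182 in the table. Whole young adult worms were sequenced as total RNA in 4 libraries. A pair of libraries came from a double mutant, with the allele rrr12 of cey-1 and the allele ok858 of cey-4, and is called the mutant below. The other pair was made from N2 worms, the common wild-type strain of laboratories. The Y-box proteins that both genes encode bind RNA through a cold shock domain. The labels give no age beyond the young adult stage, and they do not state whether replicates were grown as separate cultures. The p-values below therefore measure only the spread between these samples, which may be technical.

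Major sperm protein is the main protein of nematode sperm. It assembles into filaments that push the crawling sperm forward, in place of actin, and in developing sperm it is packed into fibrous bodies. Sperm also release it as a signal that starts oocyte maturation and contraction of the gonadal sheath, in part through the Eph receptor VAB-1. A hermaphrodite makes its sperm first and then switches to oocytes, so the adult uses a store of sperm made earlier. In whole worms, a change in the number of sperm cells and a change in msp RNA per cell cannot be told apart.

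The libraries held 33009708 and 24717311 counts in mutant replicates 1 and 2, and 29773406 and 31311497 counts in N2 replicates 1 and 2. The mutated genes followed the labels. Transcripts of cey-4 had 338 and 280 counts in the mutant libraries, against 23072 and 23781 in N2, and those of cey-1 had 723 and 609 counts in the mutant, against 4218 and 4042 in N2. Levels below are TMM-scaled CPM, the counts of a library brought to a common total, given per library or as the mean ± SD of a group (n = 2). Log2 fold changes are those of the mutant over N2, ± their standard errors. A gene was called higher or lower at an adjusted p below 0.05 in edgeR's quasi-likelihood test over 13944 genes. In that test 13.1% of all genes tested were higher in the mutant and 13.3% were lower.

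The family lies in runs of neighbouring genes on 2 chromosomes, with 13 members on chromosome II and 17 on chromosome IV in the Ensembl annotation of assembly WBcel235. The genome build that the authors used was not given in the sources used here. On chromosome II, 10 members lie between positions 4785898 and 5200180 and 3 between 5797065 and 5810330. On chromosome IV, 8 lie between 5055631 and 5316906 and 9 between 9689015 and 10143740. All 30 are single-exon genes, and 28 of them have an annotated length of 384 bases. The exceptions are msp-32, with 360 bases, and msp-74, with 234. A comparison of CPM among the 28 needs no correction for length. It can still be affected by how reads of near-identical copies were counted.

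Reads of near-identical copies can fit several members, and how the authors counted such reads was not given in the sources used here. Counts of single members are therefore uncertain. The sum over the family does not depend on how kept reads were shared out among its members. It would still miss any shared reads that were discarded. At 0 counts in every library were 8 members, msp-19, msp-51, msp-53, msp-56, msp-65, msp-77, msp-79 and msp-113. A count of 0 allows up to 3 counts, or 0.0897 to 0.121 CPM depending on the library. All 8 lie on chromosome IV, where they make up 8 of 17 members, and 0 of 13 members on chromosome II were at 0. A listed 0 does not show that a gene was silent, given the unknown treatment of shared reads. Another 4 members, msp-10, msp-32, msp-74 and msp-81, had between 1 and 13 counts in all libraries together and were not tested. The remaining 18 members passed the filter on low counts.

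A few members held most of the family's counts. Among all msp counts 33.6% belonged to msp-142, 15.9% to msp-50 and 12.6% to msp-49, together 62.1%. The share of msp-142 was 29% and 30.8% of the family in mutant replicates 1 and 2, and 36.2% and 39.5% in N2 replicates 1 and 2. Its share was thus lower in both mutant libraries than in both N2 libraries. No test was made of these shares.

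**Figure D1:**
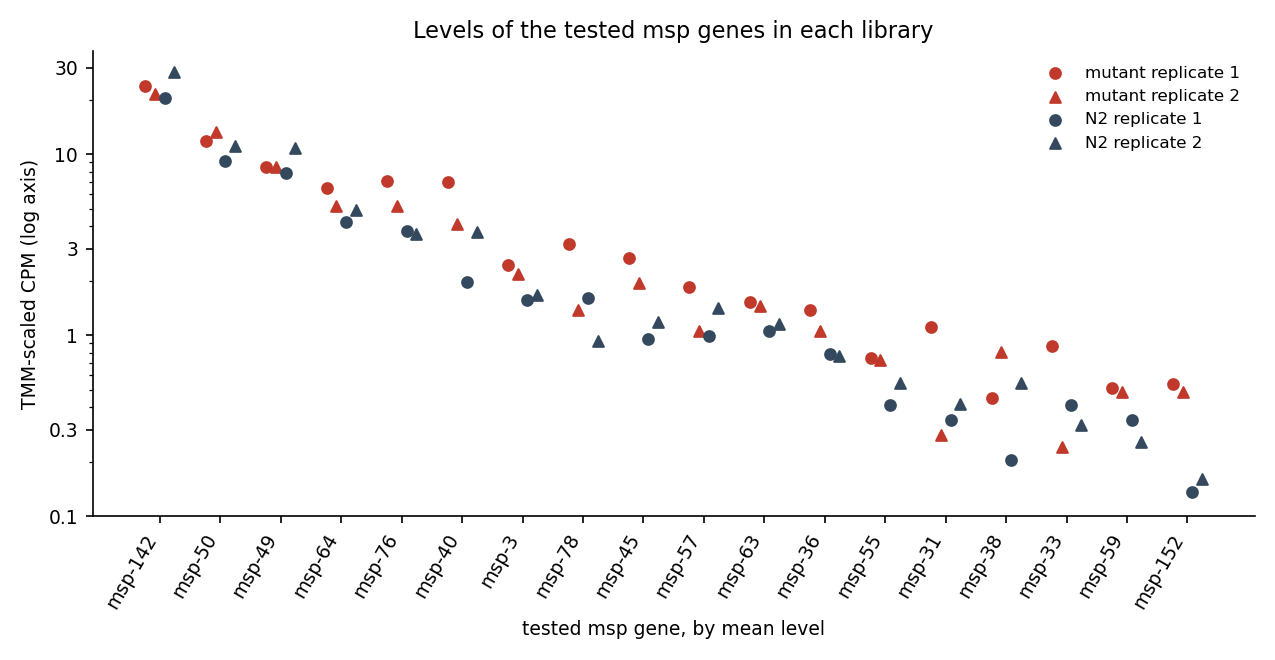
Level of each of the 18 tested msp genes in TMM-scaled CPM on a log axis, with genes ordered by mean level and 1 point per library (red, mutant; dark blue, N2; circles, replicate 1; triangles, replicate 2). The levels span from over 20 CPM for msp-142 in each library to between 0.136 and 0.538 CPM for msp-152, and mutant replicate 1 stands above mutant replicate 2 in 16 of the 18 genes.

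The family sum did not separate the groups. Summed over the 30 members, msp transcripts had 2750 and 1741 counts in mutant replicates 1 and 2, against 1650 and 2256 counts in N2 replicates 1 and 2. That is 82.2 and 70.2 CPM in the mutant, against 56.3 and 72.3 CPM in N2. Mutant replicate 1 was the highest and N2 replicate 1 the lowest, while mutant replicate 2 lay just below N2 replicate 2, so the groups overlapped. The means were 76.2 ± 8.54 CPM in the mutant and 64.3 ± 11.3 CPM in N2 (SD, n = 2 each), a log2 ratio of 0.25. The replicates of a group were as far apart as the groups, with log2 ratios of 0.23 for mutant replicate 1 over 2 and 0.36 for N2 replicate 2 over 1. Intervals for counting error alone, 95% Poisson, were narrower than these gaps between replicates. They were 66.9 to 73.5 CPM for mutant replicate 2 and 69.3 to 75.3 CPM for N2 replicate 2. Those intervals overlapped each other, so the order of mutant replicate 2 and N2 replicate 2 lies within counting error.

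The overlap was lost when msp-142, the most abundant member, was left out. Without msp-142 the sum was 58.4 and 48.6 CPM in the mutant libraries, against 35.9 and 43.8 CPM in N2, and both mutant libraries lay above both N2 libraries (log2 ratio 0.43). Leaving out msp-49 and msp-50 as well gave 38.2 and 26.9 CPM in the mutant, against 18.9 and 22 CPM in N2 (log2 ratio 0.65). These members were left out after their values were seen. By chromosome, the members on II summed to 66.9 and 59.3 CPM in the mutant, against 48.0 and 64.0 CPM in N2, and the groups overlapped. The members on IV summed to 15.3 and 10.8 CPM in the mutant, against 8.22 and 8.30 CPM in N2, and did not overlap. Within II, the run of 10 members did not overlap either, with 35.05 and 31.07 CPM in the mutant, against 22.37 and 29.42 CPM in N2. The run of 3 that holds msp-142 did overlap, with 31.85 and 28.25 CPM in the mutant, against 25.67 and 34.57 CPM in N2.

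**Figure D2:**
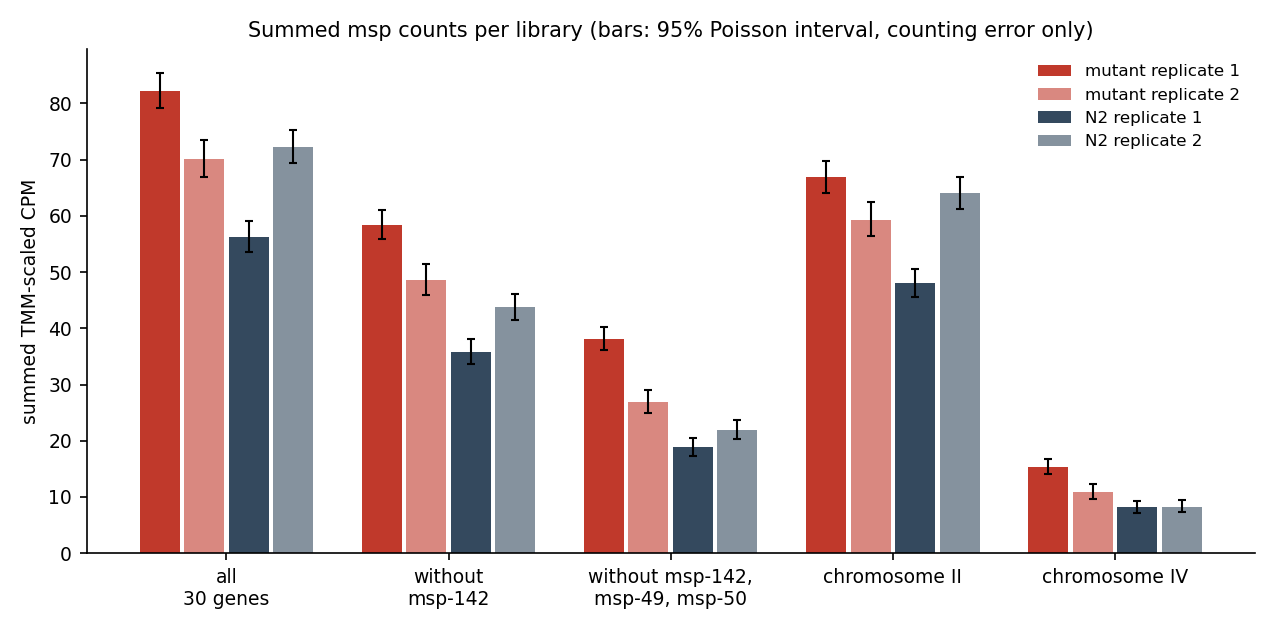
Summed TMM-scaled CPM of msp genes in each library (y axis) for all 30 members, for the family without its most abundant members, and by chromosome; error bars are 95% Poisson intervals and cover counting error only. For all 30 members mutant replicate 2 (70.2 CPM) stands just below N2 replicate 2 (72.3 CPM), whereas for chromosome IV both mutant bars stand above both N2 bars.

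Among single members, 4 of the 18 tested were higher in the mutant and 0 were lower. The 4 are 22.2% of those tested, beside the 13.1% of all genes called higher. For the count of 0, edgeR with all libraries also gave 0 lower members at an unadjusted p below 0.05. DESeq2 and limma on the deposited log2 values called 0 lower. The log2 fold changes of the tested members ran from -0.14 to 1.76, with a median of 0.67, beside a median of -0.01 over all genes tested, and 16 of 18 were positive. Without mutant replicate 1 the median was 0.42 and 13 were positive. Without N2 replicate 1 the values of msp-142 and msp-49 were -0.33 and -0.35, and without N2 replicate 2 they were 0.17 and 0.12. With limma on the deposited log2 values, which understates changes of low genes, the median was 0.41. In 11 members (61.1%) both mutant libraries lay above both N2 libraries, beside 30.6% of all genes tested, and in the other 7 the groups overlapped. Passing the filter takes a level of about 0.327 CPM in 2 libraries. Both N2 libraries reached it for 14 of the 18. For 1 member, msp-152, only the mutant libraries did, so that member could pass only by being higher in the mutant. It is nevertheless counted among the 4 called, the 16 positive and the 11 without overlap.

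The called members were msp-40, msp-45, msp-76 and msp-152. For msp-76 (WBGene00003463, chromosome IV, 9689015 to 9689398), 238 and 129 counts were found in the mutant libraries and 110 and 113 in N2. Its levels were 7.12 and 5.20 CPM in the mutant, against 3.75 and 3.62 CPM in N2. Both mutant libraries were well above the closely matched N2 pair, with a log2 difference of 0.75 ± 0.18 (edgeR adjusted p = 0.0130).

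For msp-45 (WBGene00003438, chromosome II, 5156700 to 5157083), the levels were 2.66 and 1.93 CPM in the mutant, against 0.955 and 1.19 CPM in N2. The groups did not overlap, and the log2 fold change was 1.12 ± 0.26 (edgeR adjusted p = 0.0102). This gene lies in an intron of srb-13 on the same strand, but srb-13 itself had only 4 and 1 counts in the mutant libraries and 1 and 0 in N2. For msp-40 (WBGene00003435, chromosome II, 4825414 to 4825797), the levels were 7.00 and 4.11 CPM in the mutant, against 1.98 and 3.72 CPM in N2. The lower mutant library was only slightly above the higher N2 library, and the log2 fold change was 0.98 ± 0.30 (edgeR adjusted p = 0.0338).

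The largest fold change belonged to msp-152 (WBGene00003470, chromosome II, 4933027 to 4933410), which was also the least abundant member tested. It had 18 and 12 counts in the mutant libraries and 4 and 5 in N2, or 0.538 and 0.484 CPM in the mutant and 0.136 and 0.16 CPM in N2. The log2 fold change was 1.76 ± 0.47 (edgeR adjusted p = 0.0187), and the call was lost when any of the 4 libraries was left out (1.66 to 1.90).

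All 4 calls depended on mutant replicate 1. Without that library edgeR called 0 msp genes higher, and 4 had an unadjusted p below 0.05. The log2 fold changes were then 0.51 for msp-76, 0.86 for msp-45, 0.54 for msp-40 and 1.69 for msp-152, with edgeR adjusted p from 0.116 to 0.328. That fit leaves a lone mutant library, which is assumed to vary like the N2 pair. Of all genes tested it called 961 higher, against 1821 with all libraries. Without any one of the other 3 libraries 4 msp genes were called, not the same ones in each case, since msp-152 was then lost.

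The most abundant members did not pass. For msp-142 (WBGene00003469, chromosome II, 5797927 to 5798310), the levels were 23.8 and 21.6 CPM in the mutant, against 20.4 and 28.5 CPM in N2. The N2 pair enclosed the mutant pair, and the log2 fold change was -0.11 ± 0.15 (edgeR adjusted p = 0.651), or 0.16 with the length trend described below removed. The levels of msp-49 were 8.46 CPM in both mutant libraries, against 7.84 and 10.8 CPM in N2, and its log2 fold change of -0.14 ± 0.16 likewise became 0.12. The levels of msp-50 were 11.8 and 13.2 CPM in the mutant, against 9.14 and 11 CPM in N2, which did not overlap (log2 fold change 0.31 ± 0.14, edgeR adjusted p = 0.135). The levels of msp-64 were 6.52 and 5.20 CPM in the mutant, against 4.23 and 4.90 CPM in N2 (0.37 ± 0.17, edgeR adjusted p = 0.144). Thus the 3 members with the highest levels had log2 fold changes of -0.14 to 0.31, and those of the other 15 ran from 0.31 to 1.76.

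The other 10 tested members had log2 fold changes of 0.31 to 0.96 and did not pass. In 5 of them, msp-3, msp-36, msp-55, msp-59 and msp-63, both mutant libraries lay above both N2 libraries, and in the other 5 the groups overlapped. For msp-3 the levels were 2.45 and 2.18 CPM in the mutant, against 1.57 and 1.67 CPM in N2, without overlap. For msp-36 they were 1.38 and 1.05 CPM in the mutant, against 0.784 and 0.769 CPM in N2, also without overlap.

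Some low members were high in mutant replicate 1 alone. The levels of msp-31 were 1.11 and 0.282 CPM in mutant replicates 1 and 2, against 0.341 and 0.417 CPM in N2. Those of msp-33 were 0.867 and 0.242 CPM in the mutant, against 0.409 and 0.320 CPM in N2. For msp-78 they were 3.20 and 1.37 CPM in the mutant, against 1.60 and 0.929 CPM in N2. In all 3 the groups overlapped, because mutant replicate 2 fell within or below the N2 range. Without mutant replicate 1 the log2 fold changes of msp-31 and msp-33 turned negative (-0.41 and -0.57), as did that of msp-57 (-0.18, against 0.31 with all libraries). Both msp-31 and msp-33 lie in introns, of aagr-2 on the same strand and of gst-9 on the opposite strand, and strand use was not given in the sources used here. Host of msp-33, the glutathione S-transferase gene gst-9 also differed between the mutant libraries, with 35 and 11 counts there, against 39 and 52 in N2. The host of msp-31, aagr-2, differed little between them, with 476.5 and 467.8 CPM there, against 421.2 and 460.8 CPM in N2. Also in an intron is msp-38 (0.67 ± 0.49, not called), of dhs-12 on the opposite strand. That host was lower in the mutant (-0.63 ± 0.12, edgeR adjusted p = 0.00418). Across the 18 tested members the median log2 ratio of mutant replicate 1 over 2 was 0.25, beside 0.00 over all genes tested and 0.17 over other genes of similar length. That of N2 replicate 2 over 1 was also 0.25, beside 0.03 over all genes tested and 0.15 over those of similar length.

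Annotated exon length, which may differ from the length of the transcript, moved with these differences. For a gene of 384 bases, the smoothed deviation from the mean of the libraries was -0.06 and -0.20 on the log2 scale in mutant replicates 1 and 2, against 0.04 and 0.21 in N2 replicates 1 and 2. Short genes were therefore lower in the mutant libraries as a class. Of 435 other protein-coding genes tested with 300 to 450 exon bases, 8.05% were called higher and 24.8% lower, with a median log2 fold change of -0.24. The msp genes, at the same length, had a median of 0.67 and 4 higher members of 18.

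With each library's length trend removed, 9 of the 18 tested members were higher and 0 lower (0 also at an unadjusted p below 0.05). The 9, with msp-152 among them, are 50% of those tested, beside 13.5% of all genes tested and 16.8% of the others of similar length. Of all genes tested 9.49% were lower, and of the others of similar length 12.6% were. The called members then included msp-3 (0.78 ± 0.20), msp-50 (0.57 ± 0.14), msp-64 (0.62 ± 0.15), msp-36 (0.91 ± 0.28) and, just inside the threshold, msp-78 (1.15 ± 0.37, edgeR adjusted p = 0.0499). All 18 log2 fold changes were then above 0, with a median of 0.92. The family sum was then 85.8 and 80.6 CPM in the mutant libraries, against 54.7 and 62.3 CPM in N2, so that the groups no longer overlapped (log2 ratio 0.51). The outcome for the sum thus differed between the counts as deposited and the counts with the length trend removed.

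**Figure D3:**
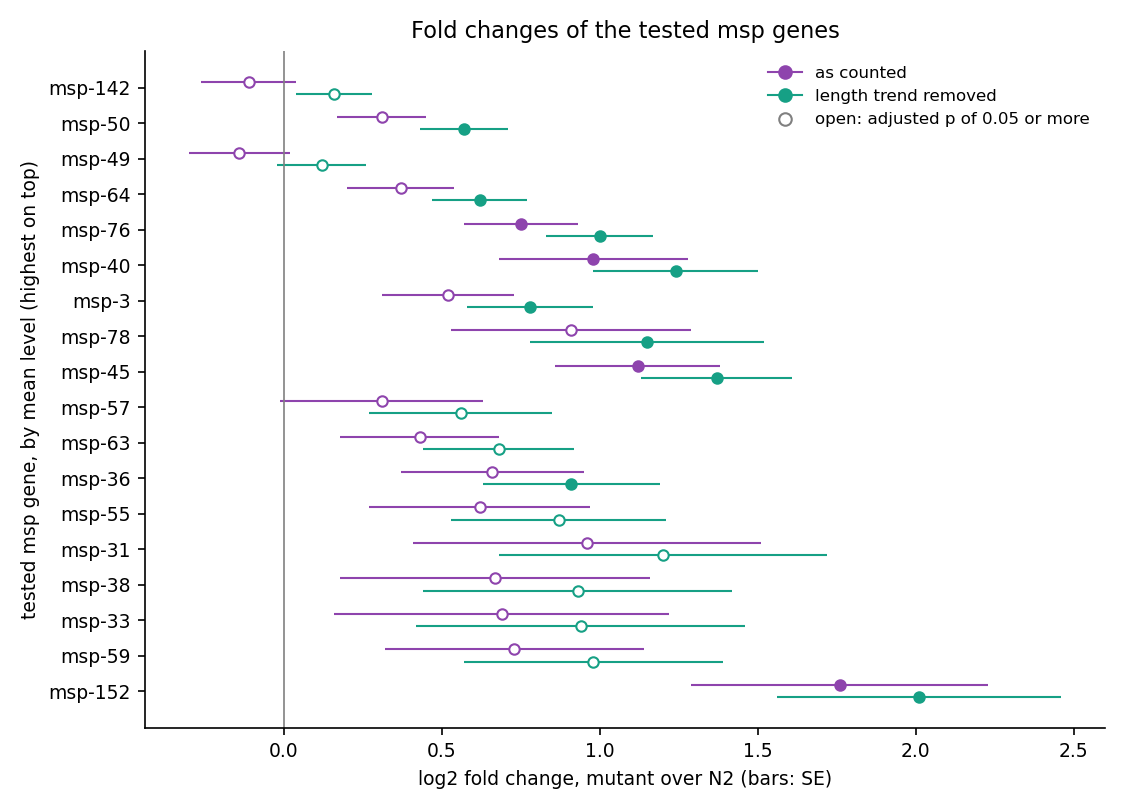
Log2 fold change, mutant over N2, with its SE for the 18 tested msp genes, ordered by mean level with the highest on top, as counted (purple) and with each library's length trend removed (green); filled points have an adjusted p below 0.05. As counted 4 points are filled, and with the trend removed 9 are, while msp-142 and msp-49 lie near 0 in both.

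Other genes with a domain like that of the major sperm proteins were counted from a list of the ssp, msd and msrp classes. The list has 23 rows, in which ssp-9 and msd-1 each name 2 rows, and 19 were tested. Of these 7 were higher and 0 lower (0 lower also at an unadjusted p below 0.05 and by DESeq2). Of all genes tested 13.1% were higher and 13.3% lower. For protein-coding genes of 300 to 450 exon bases other than the msp genes, the shares were 8.05% and 24.8%. The median log2 fold change of the list was 0.39. DESeq2 called 4 of the list higher. With the length trend removed edgeR called 14 of the list higher and 0 lower, with a median of 0.64. The shares higher were then 13.5% of all genes tested and 16.8% of those of 300 to 450 exon bases. The row of ssp-9 with the ID WBGene00006038 averaged 0.957 ± 0.0425 CPM in the mutant and 0.263 ± 0.0352 CPM in N2 (1.84 ± 0.37, edgeR adjusted p = 0.00473). Its N2 levels, 0.239 and 0.288 CPM, were under the filter level of about 0.327 CPM. This row could therefore pass only by being higher in the mutant, and it is among the 7 and the 14 called higher. The level of msrp-2 was 107 ± 27.3 CPM in the mutant and 64.5 ± 0.398 CPM in N2 (0.73 ± 0.15, edgeR adjusted p = 0.00496). The most abundant of them, msd-4, did not pass, with 213 ± 24.5 CPM in the mutant and 205 ± 41.1 CPM in N2 (0.06 ± 0.13), though it was called higher with the length trend removed (0.31) and without N2 replicate 2 (0.29). This list, too, leaned on mutant replicate 1, without which 1 member was called.

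Most genes that act in packing major sperm protein, and in fusion of the organelles that hold it, were higher. The shares over all genes tested were 13.1% higher and 13.3% lower. Of 11 tested, 9 were higher and 0 lower (0 lower also at an unadjusted p below 0.05 and by DESeq2), with a median log2 fold change of 0.67, and 4 were called without mutant replicate 1. The ferlin gene fer-1, needed for fusion of the membranous organelles with the sperm membrane, rose to 65.6 ± 2.94 CPM in the mutant, against 28 ± 4.66 CPM in N2 (1.23 ± 0.12, edgeR adjusted p = 0.000208). The palmitoyltransferase gene spe-10 rose by a log2 fold change of 0.99 ± 0.15, and the casein kinase gene spe-6, needed for assembly of major sperm protein into fibrous bodies, by 0.74 ± 0.11. The kinase gene wee-1.3, which also acts outside sperm, did not pass (0.02 ± 0.09).

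Of 7 genes of sperm fate and of transcription and small RNA control in the male germ line, 5 were higher and 0 lower (0 lower also at an unadjusted p below 0.05 and by DESeq2). Over all genes tested the shares were 13.1% higher and 13.3% lower, and with 7 genes a count of 0 lower says little. The sperm fate gene fog-3 had 53 and 37 counts in the mutant libraries, against 9 and 24 in N2 (1.5 ± 0.36). That call was lost without either mutant library (1.46 and 1.57). The Argonaute gene wago-10 had 16.2 ± 0.0504 CPM in the mutant and 6.68 ± 1.79 CPM in N2 (1.28 ± 0.17). The Argonaute gene alg-4 was the most abundant of the list, with 84.6 ± 3.28 CPM in the mutant and 43.5 ± 0.614 CPM in N2. The GATA factor gene elt-1 rose by 0.94 ± 0.15, while spe-44, which encodes a transcription factor of sperm genes, did not pass (0.26 ± 0.13).

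Of 8 genes of sperm activation, 4 were higher and 1 lower, beside 13.1% and 13.3% of all genes tested. Without either mutant library, and by DESeq2, 2 were higher and 0 lower. Those with the largest rise were spe-19 (0.99 ± 0.25) and the transporter gene snf-10 (0.97 ± 0.13), and the call of spe-19 was lost without either mutant library (1.04 and 0.99). The zinc transporter gene zipt-7.1 was the lower one, with 35.6 ± 1.73 CPM in the mutant and 43.8 ± 0.509 CPM in N2 (-0.30 ± 0.10, edgeR adjusted p = 0.0463). It missed the threshold under 11 of the 12 alternatives tried. All 7 tested genes of the sperm surface and fertilization were higher, beside 13.1% of all genes tested, with a median of 0.97. Without mutant replicate 1 the number was 4, and by DESeq2 it was 6. Among them spe-49 had a log2 fold change of 1.51 ± 0.19, and spe-11 (0.30 ± 0.09), which encodes a factor that sperm deliver to the egg, was the most abundant, though its call was lost without either mutant library (0.24 and 0.41).

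On the receiving side of the signal, the share of genes called was near that of all genes tested for higher calls. Of 12 genes listed for major sperm protein signalling in oocytes and sheath, 2 were higher and 0 lower, with a median log2 fold change of -0.01. Over all genes tested the shares were 13.1% higher and 13.3% lower. At an unadjusted p below 0.05 in edgeR, 2 genes of the list were higher and 2 lower, and DESeq2 called 0 of them in either direction. The receptor gene vab-1 had 85.6 CPM in the mutant and 86.0 CPM in N2. The members called were gsa-1, a G protein subunit gene (0.83 ± 0.19), and acy-4, an adenylyl cyclase gene that acts in the sheath (0.35 ± 0.11), and both calls were lost without either mutant library. The G protein gene goa-1, the most abundant of the list, did not pass (0.19 ± 0.10). No test was made of the difference between this list and the msp genes.

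**Figure D4:**
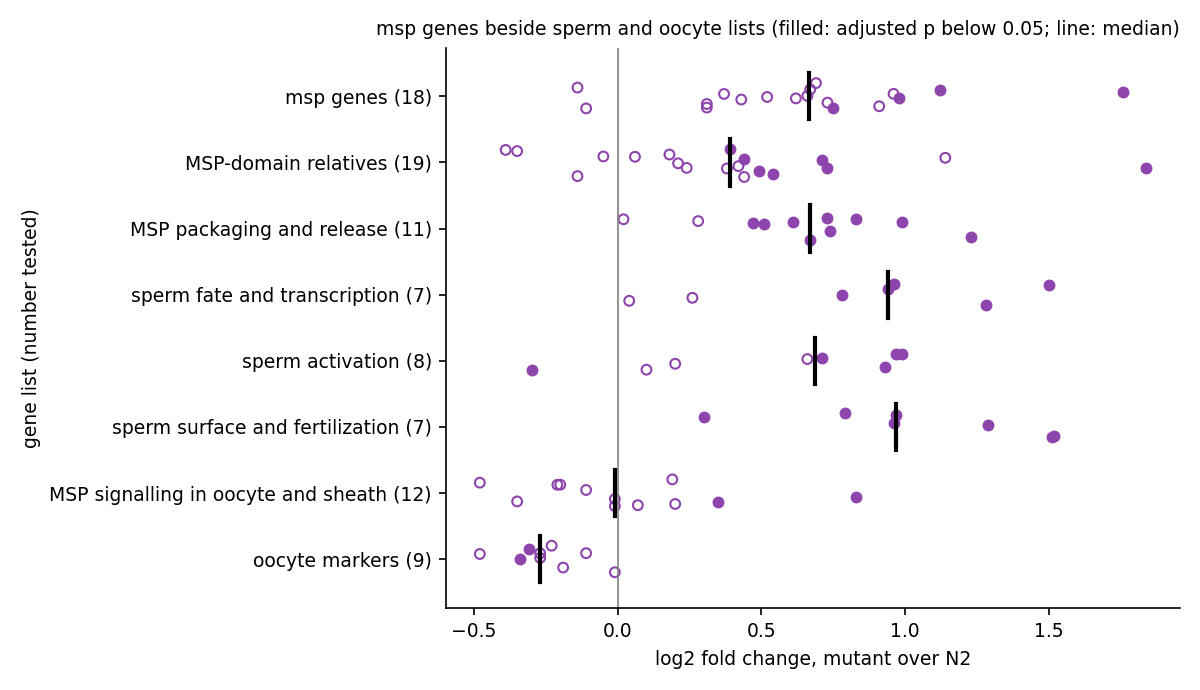
Log2 fold change, mutant over N2, of the tested msp genes and of tested genes in sperm, signalling and oocyte lists, 1 point per gene (filled, adjusted p below 0.05; open, not called), with the median as a black line and the number tested in brackets. The medians are 0.67 for the msp genes, 0.97 for the sperm surface genes, -0.01 for the signalling genes and -0.27 for the oocyte markers.

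Markers of sperm were higher in the mutant along with the called msp genes. All 11 sperm markers tested were higher in the mutant, beside 13.1% of all genes tested. Their summed level was 405 and 379 CPM in the mutant libraries, against 260.0 and 267 CPM in N2. Their call counts were 5 without mutant replicate 1 and 9 without mutant replicate 2. Of 9 oocyte markers 0 were higher and 2 lower, beside 13.3% of all genes lower, with sums of 4335 and 4544 CPM in the mutant and 5640 and 4949 CPM in N2. Without either mutant library 0 were lower, limma called 1 lower, and with the length trend removed 4 were lower. Of 4 germ line markers 0 were called, 2 were lower at an unadjusted p below 0.05, and DESeq2 called 0. With the length trend removed 2 were lower. Of 8 markers of male somatic cells 2 were tested and 0 called (1 higher at an unadjusted p below 0.05, 0 by DESeq2), cwp-2 was at 0, and the sums were 1.62 and 1.37 CPM in the mutant, against 1.26 and 1.86 CPM in N2. The part of sperm or oocyte number in the msp values was not tested. These lists share genes with the ones above, and they were set with earlier results of these data known.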

How the data were processed

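Per the labels' protocols, worms were grown from hatched larvae, Trizol was used to extract RNA from lysates that also served ribosome profiling, and the ScriptSeq v2 kit to prepare libraries. The authors deposited raw counts per gene and a table of log2 values. The deposited log2 values were made by adding 8 to each count, scaled for library total, before the logarithm (checked against the counts, to within 0.000505). The aligner, counting tool, build, strand setting and handling of reads that fit several genes were not given in the sources used here.

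Symbols came from a name table (18778 IDs matched). It holds 31 msp symbols, of which 30 match a row of the count table used here. Positions and summed exon lengths (97.5% of tested genes) came from the Ensembl annotation of WBcel235. No sequences were used here.

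Counts were tested with edgeR 4.0.16 in R 4.3.3 (TMM, default filter, quasi-likelihood F test, Benjamini-Hochberg adjustment over all 13944 genes, threshold 0.05). Standard errors are the size of the log2 fold change over the root of the F statistic. Alternatives were DESeq2 1.42.0, limma 3.58.1 on the deposited log2 values, other scalings and filters, each library left out, a replicate block, and removal, per library, of a lowess trend on exon length (span 0.3, fitted on genes with a mean of at least 50 counts). Per library, 24717311 to 33009708 counts were summed, and intervals cover counting error only. The fit was tested on simulated data.

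The members, lists and length alternative were chosen with earlier results of these data known. The rule for named genes took cey-1 and cey-4, called msp genes, the 5 most abundant msp genes and those with the largest positive and negative change, and from each other list the 2 called genes with the largest change and the most abundant gene. Of the genes that this rule gives, 1 is not reported here. Other genes were named after their values were seen. From the lists, spe-5, spe-13 and trp-3 were not analysed here. Figures were drawn with matplotlib 3.10.9.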

Additional observations from a re-analysis of the deposited data

How the results depend on the processing

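The number of msp genes called higher was 4 as reported and 3 to 5 with DESeq2 size factors, library totals alone, DESeq2, limma, either other filter or the replicate block, and 0 were lower in each of these. It moved to 9 with the length trend removed and ranged from 0 to 4 with a library left out. The family's log2 ratio of 0.25 was 0.26 and 0.28 under the other scalings, 0.51 with the length trend removed, 0.43 without msp-142 (both chosen after seeing the data), and 0.07 to 0.45 with a library left out. Over all genes, leaving out a library gave 961 to 2042 higher and 447 to 2307 lower. The genes named here whose sign changed were not called with all libraries and the counts as deposited. They were msp-142 (0.16 with the length trend removed, and -0.33 to 0.17 with a library left out), msp-49 (0.12, and -0.35 to 0.12), msd-4 (-0.14 to 0.29 with a library left out) and wee-1.3 (-0.02 with the trend removed, and -0.03 to 0.09 with a library left out). Without mutant replicate 1, msp-31, msp-33 and msp-57 turned negative (-0.41, -0.57 and -0.18), and no other tested msp gene changed sign under any alternative run. The cause was not tested.

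Replicate numbers are shared between the groups, but nothing in the labels says that they pair the samples, and the correlation of same-numbered deviations across genes was -0.0728. With the replicate block 5 msp genes were higher and 0 lower, and 1792 of all genes were higher and 1727 lower.

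With 2 libraries a group the number of libraries limits the precision, and for members under about 20 counts a library counting error does too.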
